A study of Populus euphratica with 12 samples.

Results

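Bo leaves, the broad-ovate leaves of Populus euphratica trees over 20 years old, were compared with Li leaves, the linear leaves of trees aged 0 to 3 years, in 3 small RNA libraries each. P. euphratica is a desert poplar whose leaf shape changes as the tree matures. The miRNAs compared were the 217 of 257 listed with a mean of at least 1 RPM (reads scaled to the common total of the files, here reads on listed miRNAs) over these 6 samples, and every difference is given as Bo over Li. They comprised 144 of the 166 annotated miRNAs, all 52 predicted mature sequences and 21 of the 39 predicted star sequences. All samples were juvenile leaves of trees growing at the same place, and the labels give no treatment and no genotype. No miRNA serves as a fixed marker of leaf cells, so the tissue label could not be checked against markers. La leaves (lanceolate, trees of 4 to 6 years) and Ov leaves (ovate, trees of 8 to 12 years), also in 3 libraries each, entered the same model to estimate the spread. Leaf shape and tree age changed together from Li to Bo and cannot be told apart. The samples are described as biological replicates, but the sources used here do not say whether each came from its own tree, so P values measure the spread between these samples, which may in part be technical.

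In plants, miRNAs are cut from hairpin precursors by DCL1, and usually 1 arm of the hairpin is loaded into an AGO protein while the other, the star, is degraded. The loaded strand pairs with mRNAs almost perfectly and brings about their cleavage or silences their translation. Many plant targets are transcription factors of leaf and shoot development, and others are enzymes and transporters of sulfate, phosphate and copper supply. The miR156 family, which acts on SPL mRNAs, marks the juvenile shoot of many plants, and miR172, which acts on AP2-like mRNAs, marks the adult shoot.

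The Bo libraries held 199583, 316519 and 318495 reads on listed miRNAs and the Li libraries 296164, 427662 and 414965. A single read was worth 3.14 to 5.01 RPM in Bo and 2.34 to 3.38 RPM in Li. A count of 0 (limit of 3 reads, counting error only) allowed a level of up to 9.42 to 15.0 RPM in a Bo library and up to 7.01 to 10.1 RPM in a Li library. Of the 40 miRNAs left out, 22 were annotated and 18 were star sequences, and 17 had no read in the 6 samples. The others left out had at most 2 reads over the 6 samples, so that a difference was not detectable at this depth.

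Between Bo and Li leaves 27 of the 217 miRNAs differed after adjustment, 16 higher and 11 lower in Bo (limma with Benjamini-Hochberg adjustment over the 217 miRNAs, adjusted p under 0.05). These are 12.4%, 7.37% and 5.07% of the miRNAs tested. At an unadjusted p under 0.05 there were 48 (22.1%), of which 27 (12.4%) were higher and 21 (9.68%) lower. The values of the 3 Bo and the 3 Li samples did not overlap for 68 miRNAs (31.3%), among them all 27. The largest changes were decreases. They were led by miR395, miR156, miR477, ptc-miR169n-3p and the predicted NW_011500122.1_25017, whereas the increases were led by ptc-miR6424, miR3627, miR408 and the predicted NW_011500067.1_22368. In whole leaves, fewer cells that hold a miRNA and less of it per cell cannot be told apart.

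**Figure D1:**
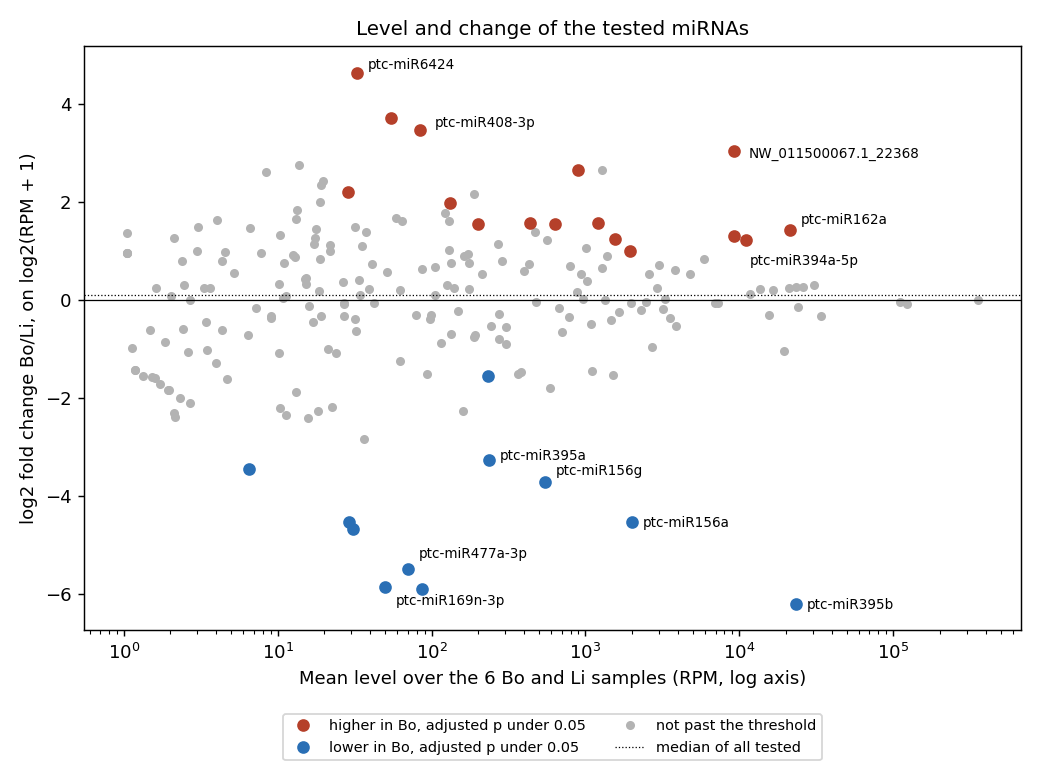
Each point is 1 of the 217 tested miRNAs, with its mean level over the 6 Bo and Li samples in RPM (x, log axis) against its log2 fold change Bo/Li on log2(RPM + 1) (y). Red points are the 16 miRNAs higher in Bo, blue points the 11 lower in Bo at an adjusted p under 0.05 in limma, grey points the others, and the dotted line is the median of all tested, 0.10. The blue points reach -6.21 and the red points 4.64.

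The split between higher and lower miRNAs depended on the scaling. With RLE scaling, where each sample is divided by its median ratio to a common profile, 3 miRNAs were higher and 13 lower. It moved the log2 fold change by a median of -0.26 over the 27 miRNAs. All 11 lower calls remained, whereas of the 16 higher calls only NW_011500067.1_22368, ptc-miR408-3p and ptc-miR6424 did. Every sample also mattered to the count. It was 9 higher and 9 lower without Bo1, 2 and 7 without Bo2, and 4 and 9 without Bo3. It was 7 and 9 without Li1, 3 and 8 without Li2, and 7 and 9 without Li3. In all 6 of these fits and in all 11 other alternatives, 9 calls remained. Of these, 7 were lower in Bo, ptc-miR156a, ptc-miR156g, ptc-miR395b, ptc-miR477a-3p, ptc-miR477a-5p, ptc-miR169n-3p and NW_011500122.1_25017, and the other two, NW_011500067.1_22368 and ptc-miR408-3p, were higher. All 27 kept their direction in every alternative run.

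**Figure D2:**
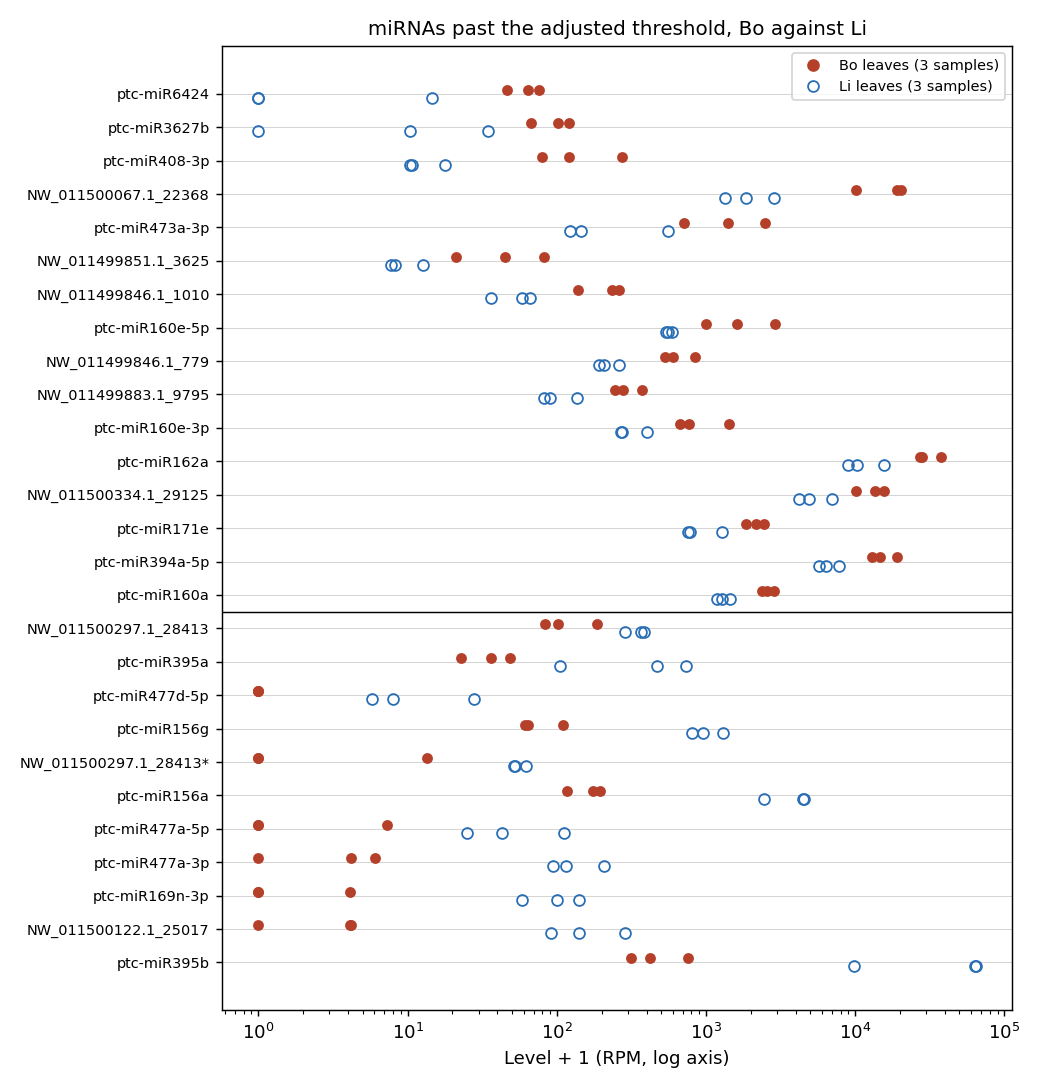
The level plus 1 in RPM (x, log axis) is shown for each of the 27 miRNAs (rows) in the 3 Bo samples (filled red points) and the 3 Li samples (open blue points), with the 16 higher in Bo above the line and the 11 lower below it. In no row do the Bo and Li points overlap, and miRNAs at a level of 0 stand at 1.

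Among the phase-change miRNAs, miR156 fell while miR172 did not pass the test. Of 10 members tested, 2 fell and 0 rose (5.07% and 7.37% over all 217), and the median log2 fold change was -1.23, against 0.10 over all 217. The level of ptc-miR156a, the more abundant miR156 sequence, was 195, 174 and 116 RPM in Bo1 to Bo3, against 2451, 4468 and 4547 RPM in Li1 to Li3. All 3 Bo values lay far below the lowest Li value, and the log2 fold change was -4.53 (SE 0.40, adjusted p = 5.54e-06 in limma), 23.1-fold lower. For ptc-miR156g the values were 60.1, 63.2 and 110 RPM in Bo, against 807, 1293 and 959 RPM in Li. This gave a log2 fold change of -3.72 (SE 0.41, adjusted p = 3.00e-05 in limma). The remaining members, ptc-miR156k and ptc-miR156l, had no read in Bo and 4 and 6 reads over the 3 Li libraries. The most abundant miR172 sequence, ptc-miR172a, was at 6153, 5437 and 5262 RPM in Bo, against 3562, 3835 and 4318 RPM in Li. All Bo values were above all Li values, but the log2 fold change of 0.53 (95% interval -0.20 to 1.25, adjusted p = 0.393 in limma) did not pass. Of the 6 miR172 sequences tested, 1 had a positive log2 fold change and 5 a negative one, with a median of -0.64. The minor ptc-miR172h-5p, at 10.02, 0 and 3.14 RPM in Bo and 10.1, 25.7 and 19.3 RPM in Li, passed only the unadjusted threshold (adjusted p = 0.204 in limma).

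miR395, which acts on ATP sulfurylase and sulfate transporter mRNAs and accumulates when sulfate is short, was among the families with the largest decreases. The level of ptc-miR395b was 421, 313 and 754 RPM in Bo1 to Bo3, against 9775, 64462 and 63873 RPM in Li1 to Li3. Li1 was far below the other Li samples and still above every Bo sample. The log2 fold change was -6.21 (SE 0.62, adjusted p = 1.36e-05 in limma), with a range of -7.11 (without Li1) to -5.75 when single samples were dropped. In reads, 423 of 834597 in the pooled Bo libraries stood against 56968 of 1138791 in the pooled Li libraries. The minor member ptc-miR395a was at 35.1, 47.4 and 22.0 RPM in Bo, against 105, 472 and 730 RPM in Li. The log2 fold change was -3.28 (SE 0.85, adjusted p = 0.0314 in limma, 0.0078 to 0.10 over the alternatives), and the call remained in 1 of the 6 fits with a sample left out, that without Li1 (-4.10). The values of all miRNAs are relative to a total that includes miR395. When the total was taken without this family, an alternative chosen after seeing the data, 15 miRNAs were higher and 13 lower.

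The miR473 and miR477 families, which carry poplar names, moved in opposite directions. All 3 miR477 sequences fell and 1 of the 2 miR473 sequences rose (5.07% and 7.37% over all 217). The 3p arm ptc-miR477a-3p was at 5.01, 3.16 and 0 RPM in Bo, which is 1, 1 and 0 reads, against 206, 115 and 94.0 RPM in Li. Over the pooled reads (2 in Bo and 149 in Li) the level in Li was 54.6 times that in Bo (14.85 to 455, 95% exact interval for counting error only), and the adjusted p was 0.000136 in limma. The 5p arm ptc-miR477a-5p was at 0, 0 and 6.28 RPM in Bo, against 111, 42.1 and 24.1 RPM in Li. Over pooled reads (2 in Bo and 61 in Li) the Li level was 22.35 times the Bo level (5.93 to 189, same kind of interval), with an adjusted p of 0.00483 in limma. Both arms of this precursor were thus present in every Li library and nearly absent from the Bo libraries. Without Bo3 the log2 fold changes were -4.72 for ptc-miR477a-3p and -5.63 for ptc-miR477a-5p, against -5.49 and -4.68 with all samples, and without Li1 that of ptc-miR477a-5p was -4.08. No read of ptc-miR477d-5p was found in Bo, against 8, 3 and 2 reads in Li, which makes it at least 3.18-fold lower in Bo when the limit of 3 reads is taken over the pooled Bo libraries. Its adjusted p was 0.0230 in limma, and 0.0094 to 0.097 over the alternatives. ptc-miR477d-5p changed by -3.45 on the log2 scale with all samples and by -2.77 without Li1. Its call was lost without Li1, without Bo2 and without Bo3, and with a replicate block over the 6 Bo and Li samples alone. In the other family, ptc-miR473a-3p was at 706, 1400 and 2474 RPM in Bo, against 145, 122 and 554 RPM in Li. The log2 fold change was 2.65 (SE 0.76, adjusted p = 0.0339 in limma, 0.00085 to 0.16 over the alternatives), and the call remained in 2 of the 6 fits with a sample left out, those without Bo1 and without Li3. The change was 2.21 without Bo3 and 3.33 without Li3, the highest Li sample. The 5p arm ptc-miR473a-5p was at 70.1, 325 and 546 RPM in Bo, against 33.8, 32.7 and 118 RPM in Li, with a log2 fold change of 2.17 and an adjusted p of 0.145 in limma. This arm passed without Bo1 (3.03) and with a replicate block over the 12 samples, and its change was 1.55 without Bo3.

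Among the miRNAs that act on mRNAs of GRAS (miR171) and NF-YA (miR169) transcription factors, 1 of 22 rose and 1 fell (7.37% and 5.07% over all 217). Their median log2 fold change was -0.67. The median level of these 22 was 5.80 RPM, below the limit of 3 reads in any of the 6 libraries. The sequence that fell was ptc-miR169n-3p, the arm opposite the one that pairs with NF-YA mRNAs. It was at 0, 0 and 3.14 RPM in Bo, a single read, against 57.4, 140 and 98.8 RPM in Li, which is 17, 60 and 41 reads. Over pooled reads the Li level was 86.5 times the Bo level (15.2 to 3444, 95% exact interval for counting error only), and the adjusted p was 0.00019 in limma. On the log2 scale the change was -5.87 with all samples and -6.55 without Bo3, the only Bo sample with a read. The other arm, ptc-miR169n-5p, had 0 reads in Bo and 5 in Li (adjusted p = 0.0597 in limma). It passed without a filter on low levels and without the trend. Other miR169 sequences were rare. Of the 14 tested, 11 had a negative log2 fold change, but all except ptc-miR169n-3p stayed above the adjusted threshold, and their levels were at most 63.1 RPM in any of the 6 samples. The rising sequence was ptc-miR171e, at 1854, 2449 and 2173 RPM in Bo, against 783, 753 and 1277 RPM in Li. The log2 fold change was 1.24 (SE 0.35, adjusted p = 0.0339 in limma, 0.019 to 0.15 over the alternatives), and 0.97 with RLE scaling, where the call was lost. With a sample left out the call remained only without Li3. It was also lost without the trend and with a replicate block over the 6 Bo and Li samples alone. By contrast, ptc-miR171a-5p, at 1082, 1147 and 706 RPM in Bo and 793, 1139 and 935 RPM in Li, had a log2 fold change of 0.02 (95% interval -0.95 to 0.99, adjusted p = 0.985 in limma).

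The miRNAs of leaf growth, polarity and margin shape included the 3 most abundant miRNAs of both leaf types, none of which passed the test. Of 21 tested, 1 rose and 0 fell (7.37% and 5.07% over all 217), and the median log2 fold change was -0.01. At the unadjusted threshold in limma, 2 rose and 0 fell (12.4% and 9.68% over all 217). ptc-miR396f passed only there, with a log2 fold change of 2.65, the largest of the 21. It had 1649 reads in the pooled Bo libraries and 458 in the pooled Li libraries. ptc-miR159a, which acts on GAMYB-like mRNAs, was the most abundant miRNA, at 366494, 389746 and 308234 RPM in Bo, against 331472, 367760 and 365510 RPM in Li. Its log2 fold change was -0.01 (95% interval -0.37 to 0.36, adjusted p = 0.985 in limma). ptc-miR166a, which acts on class III HD-ZIP mRNAs of the upper leaf side, was at 123943, 100092 and 136643 RPM in Bo, against 153607, 116973 and 110096 RPM in Li, and ptc-miR166n stood at a like level. Their log2 fold changes were -0.07 (95% interval -0.56 to 0.41) and -0.04 (-0.80 to 0.73), with adjusted p values of 0.865 and 0.964 in limma. The groups overlapped for all 3 of these miRNAs. The member that rose past the adjusted threshold was ptc-miR394a-5p, which acts on an F-box mRNA known from leaf and meristem development in Arabidopsis. It was at 12942, 14650 and 19099 RPM in Bo, against 7769, 6339 and 5767 RPM in Li, and its log2 fold change was 1.22 (SE 0.31, adjusted p = 0.0283 in limma). The call remained in 2 of the 6 fits with a sample left out and was lost with RLE scaling (adjusted p 0.018 to 0.11 over the alternatives). Its other arm, ptc-miR394a-3p, was at 10.02, 3.16 and 47.1 RPM in Bo and 33.8, 7.01 and 14.5 RPM in Li (log2 fold change -0.32, adjusted p = 0.888 in limma).

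For the auxin-response miRNAs, 3 of 13 rose and 0 fell (7.37% and 5.07% over all 217), and the median log2 fold change was 0.60. All 3 belonged to miR160, which acts on mRNAs of auxin response factors. ptc-miR160e-5p was at 1007, 1618 and 2885 RPM in Bo, against 591, 540 and 554 RPM in Li, with a log2 fold change of 1.58 (SE 0.43, adjusted p = 0.0337 in limma). Its opposite arm, ptc-miR160e-3p, was at 671, 774 and 1429 RPM in Bo, against 273, 269 and 400 RPM in Li, with a log2 fold change of 1.55 (SE 0.44, adjusted p = 0.0339 in limma). In both arms Bo3 was the highest sample. ptc-miR160a was at 2390, 2840 and 2556 RPM in Bo, against 1445, 1181 and 1284 RPM in Li, with a log2 fold change of 0.99 (SE 0.30, adjusted p = 0.0471 in limma). These calls were close to the threshold. They remained in 1, 1 and 0 of the 6 fits with a sample left out, and RLE scaling, with log2 fold changes of 1.31, 1.29 and 0.73, ended all of them (adjusted p up to 0.11, 0.14 and 0.18 over the alternatives in limma). The most abundant miR167 sequences, which act on mRNAs of other auxin response factors, varied widely within a leaf type. ptc-miR167a was at 2666, 4944 and 4820 RPM in Bo and 7472, 1323 and 1841 RPM in Li (log2 fold change 0.60, 95% interval -0.66 to 1.86, adjusted p = 0.586 in limma). ptc-miR167e was at 2300, 2663 and 4540 RPM in Bo and 5038, 3019 and 5538 RPM in Li (-0.53, -1.48 to 0.42, adjusted p = 0.501 in limma).

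Of 7 copper-responsive miRNAs, 1 rose and 0 fell (7.37% and 5.07% over all 217), with a median log2 fold change of 1.26. That median was the value of a miR1444 sequence with few reads. ptc-miR1444b and ptc-miR1444d had 2 and 4 reads over the pooled Bo libraries and 0 in Li, and ptc-miR397a had 2 in each group. ptc-miR408-3p, which acts on plantacyanin and laccase mRNAs, was at 120, 272 and 78.5 RPM in Bo, against 16.9, 9.35 and 9.64 RPM in Li. The lowest Bo value was above the highest Li value, and the log2 fold change was 3.46 (SE 0.64, adjusted p = 0.00298 in limma), 11.01-fold higher. Its opposite arm, ptc-miR408-5p, was at 20.0, 37.9 and 15.7 RPM in Bo and 3.38, 11.7 and 16.9 RPM in Li (log2 fold change 1.26, adjusted p = 0.397 in limma). No sequence of miR398, which acts on Cu/Zn superoxide dismutase mRNAs, passed the adjusted threshold. ptc-miR398b was at 120, 196 and 295 RPM in Bo and 243, 409 and 371 RPM in Li, with a log2 fold change of -0.80 (95% interval -1.90 to 0.30, adjusted p = 0.393 in limma). ptc-miR398a was at 90.2, 53.7 and 12.6 RPM in Bo and 54.0, 358 and 386 RPM in Li, with a log2 fold change of -2.27 that passed only the unadjusted threshold (adjusted p = 0.105 in limma). Its change was -1.48 without Bo3 and -3.19 without Li1, where it passed the adjusted threshold.

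None of the 5 phosphate-responsive miRNAs tested passed the adjusted threshold or the unadjusted one in limma (12.4% and 22.1% over all 217). Their median log2 fold change was -0.50. ptc-miR827, which acts on mRNAs of SPX-domain proteins, was at 2676, 2275 and 835 RPM in Bo and 1151, 1443 and 3559 RPM in Li. This gave a log2 fold change of -0.07 (95% interval -1.37 to 1.22, adjusted p = 0.964 in limma). ptc-miR399f, of the family that acts on PHO2 mRNA, was at 1117, 913 and 641 RPM in Bo and 902, 1080 and 1882 RPM in Li (-0.50, -1.56 to 0.57, adjusted p = 0.586 in limma). For both miRNAs the groups overlapped, with the highest value in Li3.

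Of the 5 miRNAs that act on the silencing machinery itself, 1 rose and 0 fell (7.37% and 5.07% over all 217), with a median log2 fold change of -0.07. ptc-miR162a, which acts on DCL1 mRNA, was at 28089, 37540 and 27134 RPM in Bo, against 10366, 8995 and 15705 RPM in Li. Its log2 fold change was 1.43 (SE 0.41, adjusted p = 0.0339 in limma), and it was the most abundant miRNA that rose. The call remained in 1 of the 6 fits with a sample left out, and RLE scaling, with a change of 1.17, ended it (adjusted p 0.016 to 0.16 over the alternatives). ptc-miR403a, which acts on AGO2 mRNA, was at 27102, 22946 and 18377 RPM in Bo and 17099, 17603 and 23134 RPM in Li (0.24, 95% interval -0.33 to 0.81, adjusted p = 0.619 in limma). Its minor partner ptc-miR403c-5p was at 210, 190 and 232 RPM in Bo and 375, 402 and 407 RPM in Li, without overlap, and passed only the unadjusted threshold (-0.91, adjusted p = 0.157 in limma).

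The miRNAs that act on immune receptor mRNAs (miR472 and miR482) and on poplar PPR mRNAs (miR475 and miR476) were 8 and 5 of those tested. They gave no adjusted call in limma (12.4% over all 217). At the unadjusted threshold (22.1% over all 217) there were 2 of the immune receptor group, both arms of ptc-miR482c, and 0 of the PPR group. The medians were 0.33 and 0.53. ptc-miR472b was at 33415, 38854 and 28936 RPM in Bo and 25742, 22160 and 34740 RPM in Li (0.31, 95% interval -0.35 to 0.96, adjusted p = 0.586 in limma). ptc-miR472a was at 15823, 13506 and 8223 RPM in Bo and 12672, 10366 and 10220 RPM in Li (0.13, -0.51 to 0.77, adjusted p = 0.823 in limma). In both the groups overlapped. ptc-miR482c-3p was at 8798, 8543 and 5394 RPM in Bo and 4511, 3398 and 4731 RPM in Li, without overlap (0.83, adjusted p = 0.181 in limma). ptc-miR475a-3p was at 3016, 3567 and 2490 RPM in Bo and 1732, 1950 and 2658 RPM in Li (0.53, -0.37 to 1.42, adjusted p = 0.480 in limma), and ptc-miR476a at 1278, 1362 and 615 RPM in Bo and 1138, 374 and 831 RPM in Li (0.53, -1.09 to 2.15, adjusted p = 0.726 in limma).

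Among the 41 other annotated miRNAs tested, 2 rose and 0 fell (7.37% and 5.07% over all 217), with a median log2 fold change of 0.31. ptc-miR6424 was at 45.1, 63.2 and 75.4 RPM in Bo, against 13.5, 0 and 0 RPM in Li, which is 4 reads in Li1 and none in the other Li libraries. Over pooled reads the Bo level was 18.1 times the Li level (6.66 to 68.8, 95% exact interval for counting error only). In limma the log2 fold change of 4.64 (SE 1.13, adjusted p = 0.0230, 0.0025 to 0.094 over the alternatives) depends on the pseudocount and was 6.87 with 0.1 and 2.40 with 10. ptc-miR3627b was at 100, 120 and 65.9 RPM in Bo, against 0, 9.35 and 33.7 RPM in Li. Over pooled reads the Bo level was 5.99 times the Li level (3.56 to 10.6, same kind of interval), with an adjusted p of 0.0337 in limma (0.0047 to 0.12 over the alternatives). These calls remained in 2 and 1 of the 6 fits with a sample left out. The change of ptc-miR6424 was 5.93 without Li1, the only Li sample with reads of it, and 3.999 without Li2 or without Li3. That of ptc-miR3627b was 3.72 with all samples, 2.30 without Li1 and 4.86 without Li3, where the call remained. The most abundant of this group did not pass. ptc-miR6445a was at 28304, 27395 and 33935 RPM in Bo and 42764, 37576 and 32434 RPM in Li (-0.33, 95% interval -1.26 to 0.60, adjusted p = 0.694 in limma). ptc-miR6421-3p was at 3838, 4297 and 2914 RPM in Bo and 3441, 1934 and 1610 RPM in Li (0.72, -3.59 to 5.03, adjusted p = 0.849 in limma). Both ptc-miR6421 arms together were at 52.8, 5503 and 99.4 RPM in La and 5026, 5955 and 44.7 RPM in Ov. The fit takes its spread from all 4 leaf types, so this wide interval does not measure the spread of Bo and Li alone. Both arms of ptc-miR6427 were lower without overlap and passed only the unadjusted threshold. The 5p arm ptc-miR6427-5p was at 241, 155 and 430 RPM in Bo, against 1107, 966 and 646 RPM in Li (-1.81, adjusted p = 0.0540 in limma). For the 3p arm, the log2 fold change was -1.45 (adjusted p = 0.0590).

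Of the 52 predicted mature miRNAs, 6 rose and 2 fell (7.37% and 5.07% over all 217), with a median log2 fold change of 0.38. The largest of these rises, NW_011500067.1_22368, has its precursor on the plus strand of scaffold NW_011500067.1 from 59999 to 60076. It was at 10101, 19004 and 20296 RPM in Bo, against 1844, 1333 and 2848 RPM in Li, and every Bo value was far above the highest Li value. The log2 fold change was 3.04 (SE 0.37, adjusted p = 7.83e-05 in limma), 8.22-fold higher. Its star was nearly absent, at 10.02, 15.8 and 0 RPM in Bo and 3.38, 4.68 and 9.64 RPM in Li (-0.17, adjusted p = 0.955 in limma), so that the mature arm made up at least 99.65% of the reads of this precursor in each of the 6 samples. NW_011500334.1_29125, on the minus strand of scaffold NW_011500334.1 from 87284 to 87365, was at 13553, 15519 and 10120 RPM in Bo, against 4876, 6952 and 4186 RPM in Li. Its log2 fold change was 1.30 (SE 0.34, adjusted p = 0.0314 in limma). The star of this precursor, at 1117, 1264 and 1027 RPM in Bo and 739, 1410 and 624 RPM in Li, overlapped between the groups (0.38, adjusted p = 0.619 in limma). The mature arm accordingly held 92.4%, 92.5% and 90.8% of the reads of the precursor in Bo, against 86.8%, 83.1% and 87.0% in Li.

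The other predicted miRNAs that rose were less abundant. NW_011499846.1_779 (plus strand of scaffold NW_011499846.1, 5387605 to 5387691) was at 531, 600 and 841 RPM in Bo, against 206, 262 and 190 RPM in Li, with a log2 fold change of 1.56 (adjusted p = 0.0337 in limma). NW_011499846.1_1010, whose precursor lies on the minus strand of the same scaffold from 4033217 to 4033279, was at 261, 234 and 138 RPM in Bo, against 57.4, 35.1 and 65.1 RPM in Li (1.98, adjusted p = 0.0337 in limma). NW_011499883.1_9795 (plus strand of scaffold NW_011499883.1, 632567 to 632643) was at 371, 243 and 276 RPM in Bo, against 81.0, 88.9 and 135 RPM in Li (1.55, adjusted p = 0.0337 in limma). NW_011499851.1_3625 (minus strand of scaffold NW_011499851.1, 1282057 to 1282116) was at 20.0, 44.2 and 81.6 RPM in Bo, against 6.75, 11.7 and 7.23 RPM in Li (2.20, adjusted p = 0.0365 in limma). In each of the 4 every Bo sample was above every Li sample. The calls of NW_011500334.1_29125 and of these 4 remained in at most 2 of the 6 fits with a sample left out and were lost with RLE scaling.

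The predicted miRNA that fell most, NW_011500122.1_25017 (plus strand of scaffold NW_011500122.1, 327843 to 327911), had 0, 1 and 1 reads in Bo, against 84, 39 and 58 reads in Li, or 284, 91.2 and 140 RPM. Over pooled reads the Li level was 66.3 times the Bo level (18.1 to 552, 95% exact interval for counting error only), and the adjusted p was 0.000393 in limma. On the log2 scale it changed by -5.90 with all samples and by -5.22 without Bo1. NW_011500297.1_28413 (plus strand of scaffold NW_011500297.1, 159247 to 159292) was at 185, 82.1 and 100 RPM in Bo, against 382, 285 and 366 RPM in Li, with a log2 fold change of -1.56 (adjusted p = 0.0339 in limma). Its star was the only 1 of the 21 star sequences tested that passed (12.4% over all 217). It was at 0, 0 and 12.6 RPM in Bo, against 60.8, 51.4 and 50.6 RPM in Li (adjusted p = 0.0337 in limma). Over pooled reads (4 in Bo and 61 in Li) the Li level of the star was 11.2 times its Bo level (4.15 to 42.3, same kind of interval). Both arms of this precursor therefore fell, but each call remained in only 1 of the 6 fits with a sample left out, and not in the same one. That of NW_011500297.1_28413 remained without Bo1 (-1.90) and that of NW_011500297.1_28413* without Bo3 (-5.78, against -4.58 to -3.90 in the other fits). The most abundant predicted miRNAs did not pass. NW_011499875.1_8560 was at 24246, 25224 and 25084 RPM in Bo and 13658, 27021 and 24077 RPM in Li (0.26, 95% interval -0.66 to 1.19, adjusted p = 0.783 in limma). NW_011499886.1_10127 was at 27157, 17057 and 24644 RPM in Bo and 33434, 21489 and 21515 RPM in Li (-0.15, -0.73 to 0.43, adjusted p = 0.815 in limma). Their stars, the most abundant of the star sequences, had log2 fold changes of 0.25 for NW_011499875.1_8560* (adjusted p = 0.816) and -0.06 for NW_011499886.1_10127* (adjusted p = 0.937, limma).

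For 38 precursors both arms were tested, and in 28 of them the log2 fold changes of the arms had the same sign. Of the 9 precursors with an arm past the adjusted threshold, 7 had arms of the same sign. The exceptions were NW_011500067.1_22368 and ptc-miR394a, whose other arms were rare. ptc-miR394a-3p had 18 reads in the pooled Bo libraries and 19 in the pooled Li libraries, and NW_011500067.1_22368* had 7 in each.

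The sources used here do not say how reads matching several members of a family were shared between them, so summed levels of families (sequences with the same miR number, both arms included) were tested as well. Of 62 families, 7 (11.3%) were higher and 4 (6.45%) lower in Bo (limma with Benjamini-Hochberg adjustment over the 62 families, 17.7% in all). At an unadjusted p under 0.05 there were 17 (27.4%), of which 11 (17.7%) were higher and 6 (9.68%) lower, and for 22 (35.5%) the Bo and Li sums did not overlap. The summed miR156 level was 256, 237 and 226 RPM in Bo, against 3265, 5773 and 5514 RPM in Li, a log2 fold change of -4.29 (SE 0.35, adjusted p = 1.24e-06 in limma). miR395 changed by -6.10 (SE 0.63, adjusted p = 8.48e-06) and miR477 by -5.08 (SE 0.56, adjusted p = 1.28e-05). The summed miR408 level was 140, 310 and 94.2 RPM in Bo, against 20.3, 21.04 and 26.5 RPM in Li, a log2 fold change of 2.78 (SE 0.61, adjusted p = 0.00824 in limma). These 4 families passed in all 6 fits with a sample left out. The other families past the threshold were miR6424, miR3627, miR473, miR162, miR394 and miR160, higher in Bo, and miR6427, lower in Bo. In the order named, the higher ones passed in 3, 2, 2, 1, 3 and 1 of the 6 fits with a sample left out. With RLE scaling the calls of miR473, miR162, miR394 and miR160 were lost (adjusted p = 0.0783 each in limma). For miR160 the sum was 5186, 5943 and 7322 RPM in Bo, against 3059, 2890 and 3181 RPM in Li (1.001, adjusted p = 0.0267 in limma). For miR6427 it was 932, 543 and 1181 RPM in Bo, against 2816, 2603 and 2125 RPM in Li (-1.57, adjusted p = 0.0385 in limma), and this call was lost whenever a sample was left out. The miR172 sum was 6995, 6041 and 5733 RPM in Bo, against 4369, 5013 and 5128 RPM in Li, and did not pass (0.37, 95% interval -0.36 to 1.10, adjusted p = 0.531 in limma). Nor did the sums of miR169 (-1.30, adjusted p = 0.12), miR398 (-1.14, adjusted p = 0.173), miR171 (0.59, adjusted p = 0.173), miR482 (0.63, adjusted p = 0.189) and miR396 (-0.64, adjusted p = 0.399).

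**Figure D3:**
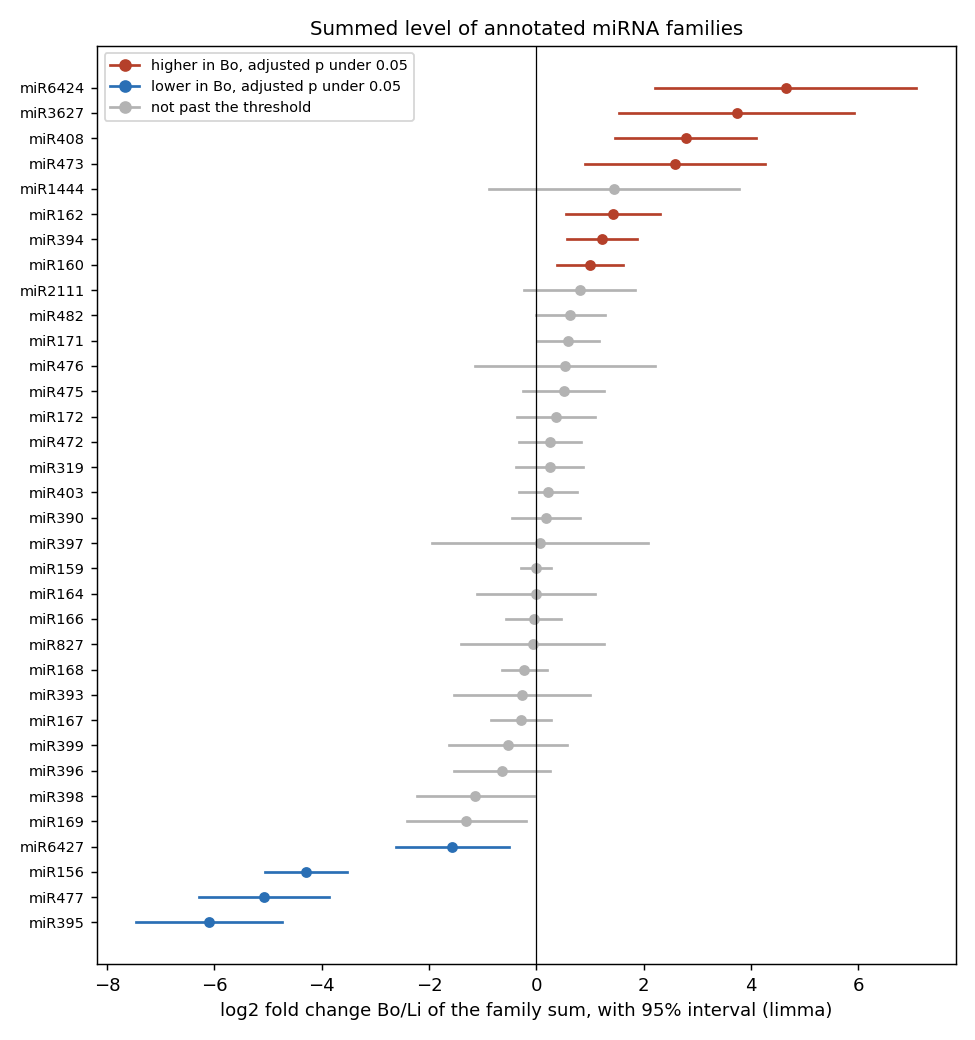
The log2 fold change Bo/Li of the summed level of annotated families (points) is shown with its 95% interval from limma (lines) for the families of the functional groups and for every family past the adjusted threshold. Red families were higher and blue families lower in Bo at an adjusted p under 0.05 in limma. The interval of miR156 ends at -3.53, those of miR477 and miR395 lie lower still, and that of miR172 spans 0.

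Within families, the share of a sequence in the reads of its family does not depend on the scaling. Of 113 such shares, 26 (23%) did not overlap between Bo and Li. The examples here were chosen after their values were seen, and no single share can go below p = 0.1 in an exact permutation test with 3 samples each. In miR160, ptc-miR160e-5p held 19.4%, 27.2% and 39.4% of the family in Bo, against 19.3%, 18.7% and 17.4% in Li, while ptc-miR160b-3p held 21.1%, 11.2% and 5.49% in Bo, against 24.0%, 30.5% and 29.1% in Li. In miR171, ptc-miR171e held 44.2%, 51.7% and 63.7% in Bo, against 30.7%, 29.0% and 42.7% in Li. In miR172, ptc-miR172a held 88.0%, 90.0% and 91.8% in Bo, against 81.5%, 76.5% and 84.2% in Li. The miR396 family acts on mRNAs of growth-regulating factors. In it ptc-miR396f held 8.995%, 11.1% and 5.502% in Bo, against 2.18%, 0.64% and 0.41% in Li, while ptc-miR396c held 62.7%, 43.8% and 60.3% in Bo, against 68.8%, 77.0% and 73.5% in Li. In miR482, ptc-miR482a.2 held 12.5%, 12.6% and 12.3% in Bo, against 21.1%, 23.6% and 24.4% in Li, while ptc-miR482c-3p held 62.8%, 66.6% and 57.6% in Bo, against 56.9%, 52.5% and 53.5% in Li. The miR396, miR171, miR172 and miR482 sums did not pass the adjusted threshold in limma.

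**Figure D4:**
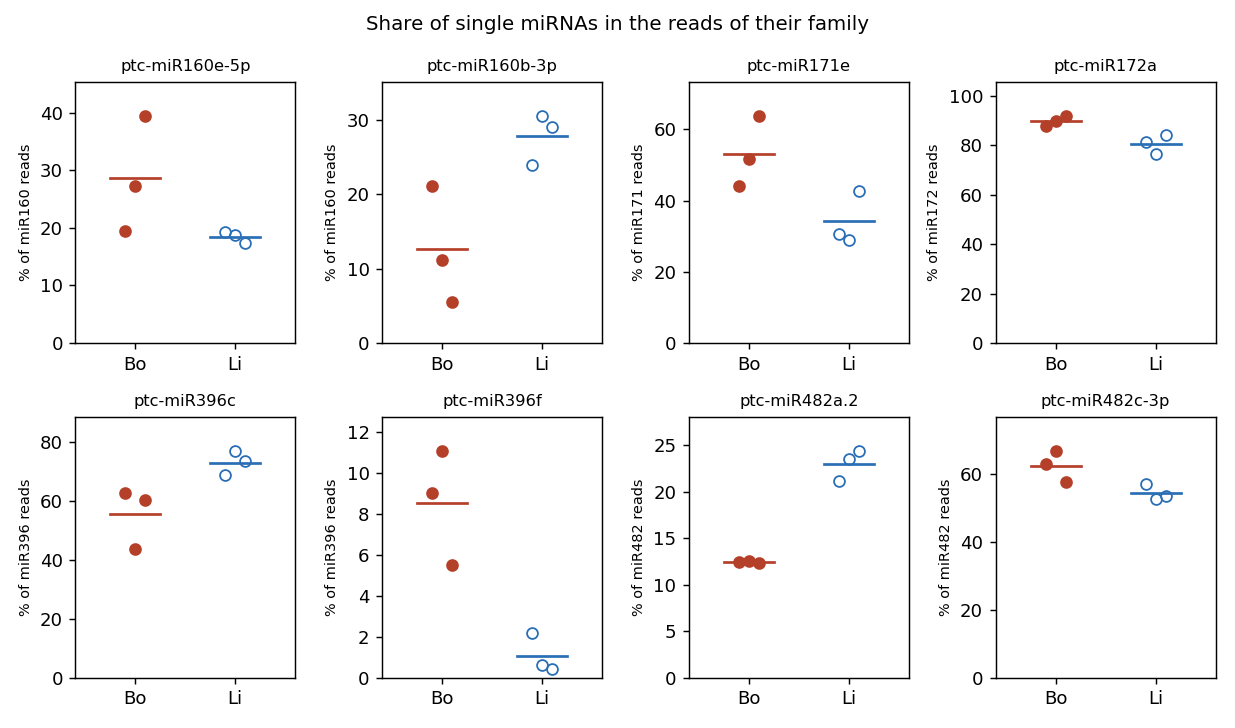
Each panel shows the percent of the reads of its family held by 1 miRNA (y, from 0) in the 3 Bo samples (filled points) and the 3 Li samples (open points), with lines at the means. The Bo and Li points do not overlap in any panel, and ptc-miR160e-5p, ptc-miR171e, ptc-miR172a, ptc-miR396f and ptc-miR482c-3p are higher in Bo, the other miRNAs lower.

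Across the 4 leaf types, the means of La and Ov lay between those of Li and Bo for 22 of the 27 miRNAs, 13 of those higher and 9 of those lower in Bo. The Li and Bo values had chosen these miRNAs, so these counts describe them. In 13 of the 27, all La and all Ov values were clear of the Li values, and in 8 they were clear of the Bo values. These counts and that of 22 were not made over all 217 miRNAs. Whether the 27 differ from the others in this was not tested. Mean RPM of ptc-miR395b were 46037 (Li), 781 (La), 719 (Ov) and 496 (Bo), so that only Li stood apart. By contrast, NW_011500122.1_25017 had means of 172 (Li), 292 (La), 233 (Ov) and 2.10 (Bo) RPM, and ptc-miR169n-3p of 98.8 (Li), 43.6 (La), 64.1 (Ov) and 1.05 (Bo) RPM, so that only Bo stood apart. ptc-miR477a-3p was similar, although its Ov values were also clear of Li, with 138 (Li), 86.5 (La), 58.7 (Ov) and 2.72 (Bo) RPM. NW_011500067.1_22368 had its means in order, with 2008 (Li), 4458 (La), 7121 (Ov) and 16467 (Bo) RPM, and its La and Ov values overlapped neither Li nor Bo. NW_011500334.1_29125 had means of 5338 (Li), 17185 (La), 14793 (Ov) and 13064 (Bo) RPM, highest in La.

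**Figure D5:**
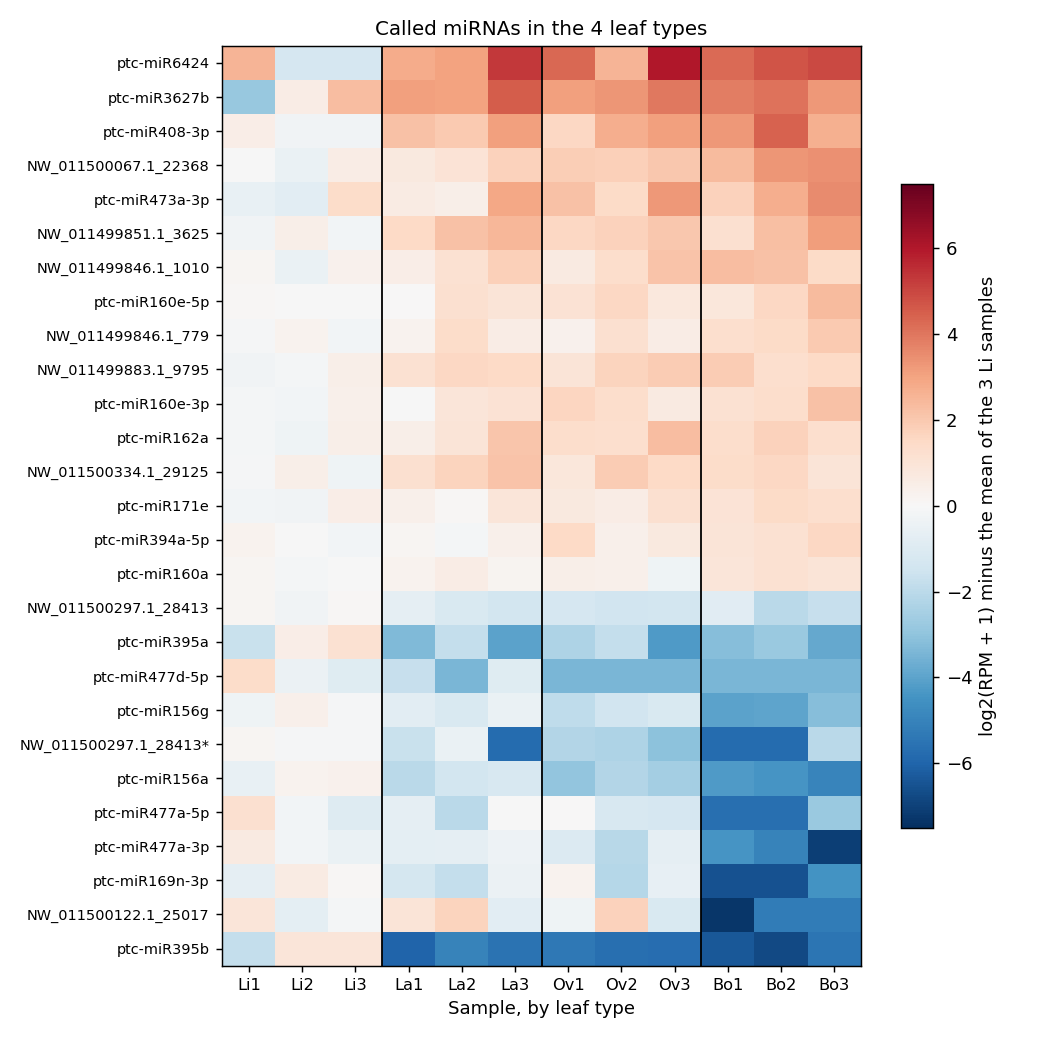
Each row is 1 of the 27 miRNAs and each column 1 of the 12 samples, ordered by leaf type from Li to Bo. Colour gives log2(RPM + 1) minus the mean of the 3 Li samples, red above and blue below it. The row of ptc-miR395b is blue in all La, Ov and Bo samples, whereas the rows of ptc-miR477a-3p, ptc-miR169n-3p and NW_011500122.1_25017 are dark blue only in the Bo samples.

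The total was divided differently between kinds of miRNA. Annotated miRNAs held 90.1%, 90.2% and 89.3% of the reads in Bo1 to Bo3, against 92.3%, 92.2% and 92.5% in Li1 to Li3. The means were 89.9% ± 0.52 in Bo and 92.3% ± 0.19 in Li (SD, n = 3 each), and the groups did not overlap (exact permutation test, two-sided, p = 0.1, the smallest this design allows). Predicted mature miRNAs held 8.86% ± 0.71 in Bo and 6.38% ± 0.22 in Li (SD, n = 3 each, exact permutation test, p = 0.1). Without NW_011500067.1_22368 and NW_011500334.1_29125 they held 5.90% in Bo and 5.64% in Li, and the groups overlapped. Star sequences held 1.30% ± 0.22 in Bo and 1.31% ± 0.04 in Li (SD, n = 3 each, exact permutation test, p = 0.8). As a description, the 11 miRNAs that fell held 0.090%, 0.069% and 0.11% of the reads in Bo, against 1.43%, 7.14% and 7.09% in Li. Most of the Li share was ptc-miR395b, at a mean of 46037 RPM in Li, and Li1 was far below the other Li samples. The 16 that rose held a mean of 8.66% in Bo and 2.95% in Li.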

How the data were processed

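Small RNA libraries of 3 Bo and 3 Li samples were compared, with 3 La and 3 Ov samples in the same fit. The authors matched reads to miRBase (v.21, no mismatch allowed), used miRDeep2 to predict more miRNAs, and deposited a value they call TPM for each miRNA of a sample. Every deposited value was a whole multiple of the smallest one (within 0.001) and each column added up to the same total, so the deposited unit is RPM without a term for length. Precursor positions are as deposited. The sources used here do not give trimming, tool versions or the handling of reads matching several miRNAs.

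Reads recovered from these multiples served for depth, limits and counting intervals only, not for a count model, since each sample had 76 to 93 low values, under the minimum of 100. limma 3.58.1 under R 4.3.3, with a mean-variance trend, was run on log2(RPM + 1) over all 12 samples as 4 group means, with the contrast Bo minus Li, two-sided, and Benjamini-Hochberg adjustment over 217 miRNAs or 62 families. Fold changes on this scale understate the change of rare miRNAs. The fit was tested on simulated data, where it called most changed miRNAs but in some simulated sets also called many unchanged ones. Exact permutation tests, intervals and figures used Python 3.11.15, numpy 2.4.6, pandas 2.3.3, scipy 1.17.1 and matplotlib 3.10.9.

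Members and functional lists were chosen with earlier results of these data known. Named with values were all miRNAs past the adjusted threshold, the 2 most abundant members of each list, the 3 most abundant miRNAs and the other tested arm of a called precursor. Some, not all, of the miRNAs past only the unadjusted threshold where Bo and Li did not overlap were named as well. Others named were chosen after their values were seen (ptc-miR156k, ptc-miR156l, ptc-miR1444b, ptc-miR1444d, ptc-miR397a and the sequences named for their share within a family). No 2 libraries of a group were copies. Alternatives were other scalings, pseudocounts, filters, samples in the fit, a replicate block, no trend, and each sample left out.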

Additional observations from a re-analysis of the deposited data

How the results depend on the processing

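The count of 27 miRNAs was 16 with RLE scaling and 48 without adjustment, and 9 to 18 with a sample left out. The 16 higher miRNAs were 3 with RLE scaling, 8 in limma without a trend, 27 without adjustment and 2 to 9 with a sample left out. The 11 lower miRNAs were 21 without adjustment and 7 to 9 with a sample left out. The 11 families were 7 with RLE scaling and 4 to 10 with a sample left out, and the 7 higher families were 3 and 1 to 6. The 4 lower families were 3 or 4 with a sample left out. The difference of -2.47 percentage points in the share of annotated miRNAs lay between -2.65 and -2.17.

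Whether the numbers of the replicates pair the samples is not known. Correlations between the deviations of same-numbered Bo and Li samples were -0.02, -0.28 and 0.003, and the La and Ov samples were not compared in this way. With the replicate block, limma called 32 miRNAs over 12 samples (18 higher, 14 lower) and 19 over the 6 samples alone (9 higher, 10 lower), and 11 and 10 families.

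Changes of sign occurred only among named miRNAs that had not passed. RLE scaling gave -0.24 for ptc-miR171a-5p, -0.13 for ptc-miR472a, -0.011 for NW_011499875.1_8560* and -0.024 for ptc-miR403a. The total without miR395 gave -0.050 for ptc-miR171a-5p. The total without the 10 most abundant miRNAs gave 0.10 for ptc-miR159a, 0.035 for ptc-miR166a, 0.036 for ptc-miR827, 0.053 for NW_011499886.1_10127* and 0.072 for ptc-miR166n. A pseudocount of 10 gave 0.14 for NW_011500067.1_22368*.
With a sample left out, the log2 fold changes that turned sign ranged as follows: ptc-miR171a-5p -0.11 to 0.24, ptc-miR472a -0.066 to 0.41, ptc-miR159a -0.077 to 0.092, ptc-miR166a -0.17 to 0.071, ptc-miR827 -0.40 to 0.45, NW_011499886.1_10127 -0.28 to 0.067, NW_011499875.1_8560 -0.038 to 0.45, NW_011499886.1_10127* -0.25 to 0.16, NW_011499875.1_8560* -0.15 to 0.52, ptc-miR166n -0.33 to 0.19, NW_011500067.1_22368* -0.95 to 1.08 and ptc-miR394a-3p -1.26 to 0.50.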

Other observations

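Of the 217 miRNAs tested, 15 had no read in the 3 Bo libraries and 5 none in the 3 Li libraries. Those without a read in Bo had 2 to 13 reads over the Li libraries, with a median of 4. Among them were 5 miR169, 2 miR156 and 2 miR171 sequences, and only ptc-miR477d-5p passed the adjusted threshold. Those without a read in Li had 2 to 4 reads in Bo. Most of these differences were not detectable at this depth, which was lower in Bo.

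A further 21 miRNAs passed only the unadjusted threshold, 11 higher and 10 lower, and 13 of these had no overlap of Bo and Li values. Among them, NW_011499986.1_17983 was at 611, 989 and 458 RPM in Bo, against 213, 203 and 354 RPM in Li (log2 fold change 1.39, adjusted p = 0.0590 in limma), NW_011500070.1_22649 at 551, 351 and 232 RPM in Bo, against 138, 161 and 186 RPM in Li (1.14, adjusted p = 0.149 in limma), and NW_011500300.1_28478 at 5.01, 6.32 and 9.42 RPM in Bo, against 20.3, 95.9 and 81.9 RPM in Li (-2.85, adjusted p = 0.207 in limma).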
